A study of Homo sapiens with 4 samples.

Results

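Autophagy delivers cytoplasm and organelles to lysosomes inside double-membraned vesicles, and 10 genes of its core machinery were examined in HEK293 cells, a human embryonic kidney line: MAP1LC3A, MAP1LC3B, GABARAP, GABARAPL1, GABARAPL2, SQSTM1, ULK1, BECN1, TFEB and WIPI1. They were taken by name, and all 22 probe sets to which the annotation of the array gives 1 of these symbols and no other were used, of 41097 probe sets with 1 symbol in all. A further probe set that lists a member beside another gene was left out. The LPA group held 2 arrays, of cells kept overnight without serum and then exposed for 2 h to 1 µM LPA (lysophosphatidic acid, a lipid of serum whose receptors couple to G proteins). The untreated group held 2 arrays, titled Vc, whose treatment is given as none, and the labels name no vehicle for them. Cells grown with serum were not measured, so the levels here are those of starved cells and no value shows what starvation itself did. The replicates are not stated to be separate cultures, so p-values reflect the spread between arrays alone, which may be technical.

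When growth factors or amino acids are withdrawn, the kinase mTORC1 loses activity and the ULK1 kinase complex starts to form autophagosomes. BECN1 and a lipid kinase mark the growing membrane, WIPI1 reads that mark, and proteins of the LC3 and GABARAP family are coupled to the membrane, where receptors such as SQSTM1 hand over cargo. TFEB, a transcription factor that mTORC1 keeps in the cytoplasm, switches on lysosomal and autophagy genes after release. Much of this control acts on proteins, which arrays do not measure.

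Promoter windows from RefSeq (GRCh38.p14, 250 bases before to 50 after a start of transcription) were found for 9 of the 10 genes, 13 windows in all. The windows of GABARAPL1, SQSTM1 and TFEB are shown because SQSTM1 and TFEB hold the 2 member probe sets with the smallest unadjusted p and GABARAPL1 varied on both its probe sets. Where a gene had several windows, the one with the most matches is given. Capitals mark GC boxes (GGGCGG) and, in GABARAPL1, a cAMP response element (TGACGTCA), searched on both strands.
GABARAPL1, chr12:10212627-10212926, plus strand: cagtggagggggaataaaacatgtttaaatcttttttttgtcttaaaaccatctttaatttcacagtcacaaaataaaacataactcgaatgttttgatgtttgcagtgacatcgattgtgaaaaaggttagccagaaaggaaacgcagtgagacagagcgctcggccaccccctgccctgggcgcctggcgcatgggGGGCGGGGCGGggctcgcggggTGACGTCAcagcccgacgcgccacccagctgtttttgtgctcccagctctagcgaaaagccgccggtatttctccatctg
SQSTM1, chr5:179820655-179820954, plus strand: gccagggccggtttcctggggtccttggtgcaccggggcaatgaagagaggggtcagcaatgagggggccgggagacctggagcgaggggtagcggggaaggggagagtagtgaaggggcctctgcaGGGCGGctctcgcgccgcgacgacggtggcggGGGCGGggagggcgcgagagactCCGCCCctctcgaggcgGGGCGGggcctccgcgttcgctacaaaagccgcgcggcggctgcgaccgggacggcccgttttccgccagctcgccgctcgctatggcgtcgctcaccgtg
TFEB, chr6:41735011-41735310, minus strand: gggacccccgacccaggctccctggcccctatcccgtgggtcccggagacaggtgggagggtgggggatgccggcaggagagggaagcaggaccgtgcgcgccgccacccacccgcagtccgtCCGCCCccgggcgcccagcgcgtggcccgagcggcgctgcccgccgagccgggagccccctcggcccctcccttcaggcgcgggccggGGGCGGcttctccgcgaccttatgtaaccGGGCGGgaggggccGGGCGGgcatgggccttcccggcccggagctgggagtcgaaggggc
The GC box was present in 12 of the 13 member windows (92.3%), against 45% of 35116 windows of all genes. SQSTM1 and TFEB gave 3 of these member windows each. The box holds G and C alone, and these bases made up a median of 58.7% of all windows. The windows of GABARAPL1 (51.7%) and BECN1 (58.0%) lay below that median and the other member windows above it, up to 79.7% in WIPI1. The part of base composition was not tested. The cAMP response element was found in the GABARAPL1 window alone among them, starting at base -30 from the start, and in 1.85% of all windows; it was added to the search after the windows were read. The CLEAR element bound by TFEB (GTCAC followed by its reverse complement, which holds the shorter CACGTG) was in 0 member windows and in 0.353% of all. CACGTG alone (7.26% of all windows), the AP-1 site TGACTCA (4.95%) and the FOXO site GTAAACA (3.42%) were also in 0 member windows. The antioxidant response element core TGACNNNGC was in the MAP1LC3B window, starting at base -46, and in 13.3% of all windows. Such matches describe letters in these windows and do not show binding.

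Values are MAS5 intensities as deposited, 1 per probe set and array, and differences are LPA minus untreated on log2(intensity + 1). The trimmed mean was 500.1 on every array. LPA replicate 2 had an ACTB 3′-to-5′ intensity ratio of 18.8 and a maximum intensity of 62508, against 12.6 to 13.6 and 93776 or more on the other arrays. The same ratio for GAPDH was higher on both LPA arrays (1.35 and 1.38) than on the untreated arrays (1.25 and 1.22), and its part in the differences below was not tested. Of the HEK293 markers, 8 of 9 lay at or above the 40th percentile of all probe sets (47.1), NEFL and NEFM (neurofilaments) and VIM (vimentin) among them, and 1, LHX1, lay below it. Of 8 markers of other cell types, 6 lay below it, including PTPRC of blood cells and ALB of hepatocytes, while EPCAM of epithelia and PECAM1 of endothelium lay above. The summed intensity of these 8 ranged from 439 to 456 on the LPA arrays and from 463 to 622 on the untreated arrays.

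No member probe set passed the test. Limma, fitted over all 41097 probe sets and two-sided, gave adjusted p = 0.9998 for each of the 22, and 0 probe sets of any gene passed (0% in either direction). Among the member probe sets, 2 had an unadjusted limma p under 0.05, 1 of TFEB (higher) and 1 of SQSTM1 (lower). Over all 41097 there were 1378, or 1.69% in the higher and 1.67% in the lower direction. The LPA pair lay wholly above the untreated pair for 5 of the 22 (22.7%), where all probe sets gave 15.0%. It lay wholly below for 6 (27.3%), where all gave 15.8%. Over the 10 genes, each at its brightest probe set, 5 differences were positive and 5 negative, with a median of 0.15 against -0.0073 over all 19775 genes. The value of 0.15 fell between BECN1 (-0.0099) and GABARAPL1 (0.30), with no gene between them. Within replicate number 1 the median of the 10 genes was 0.016, and within number 2 it was 0.088. It was -0.035 without LPA replicate 2 and 0.0030 without untreated replicate 1. Over the 22 member probe sets the median difference was 0.028.

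**Figure D1:**
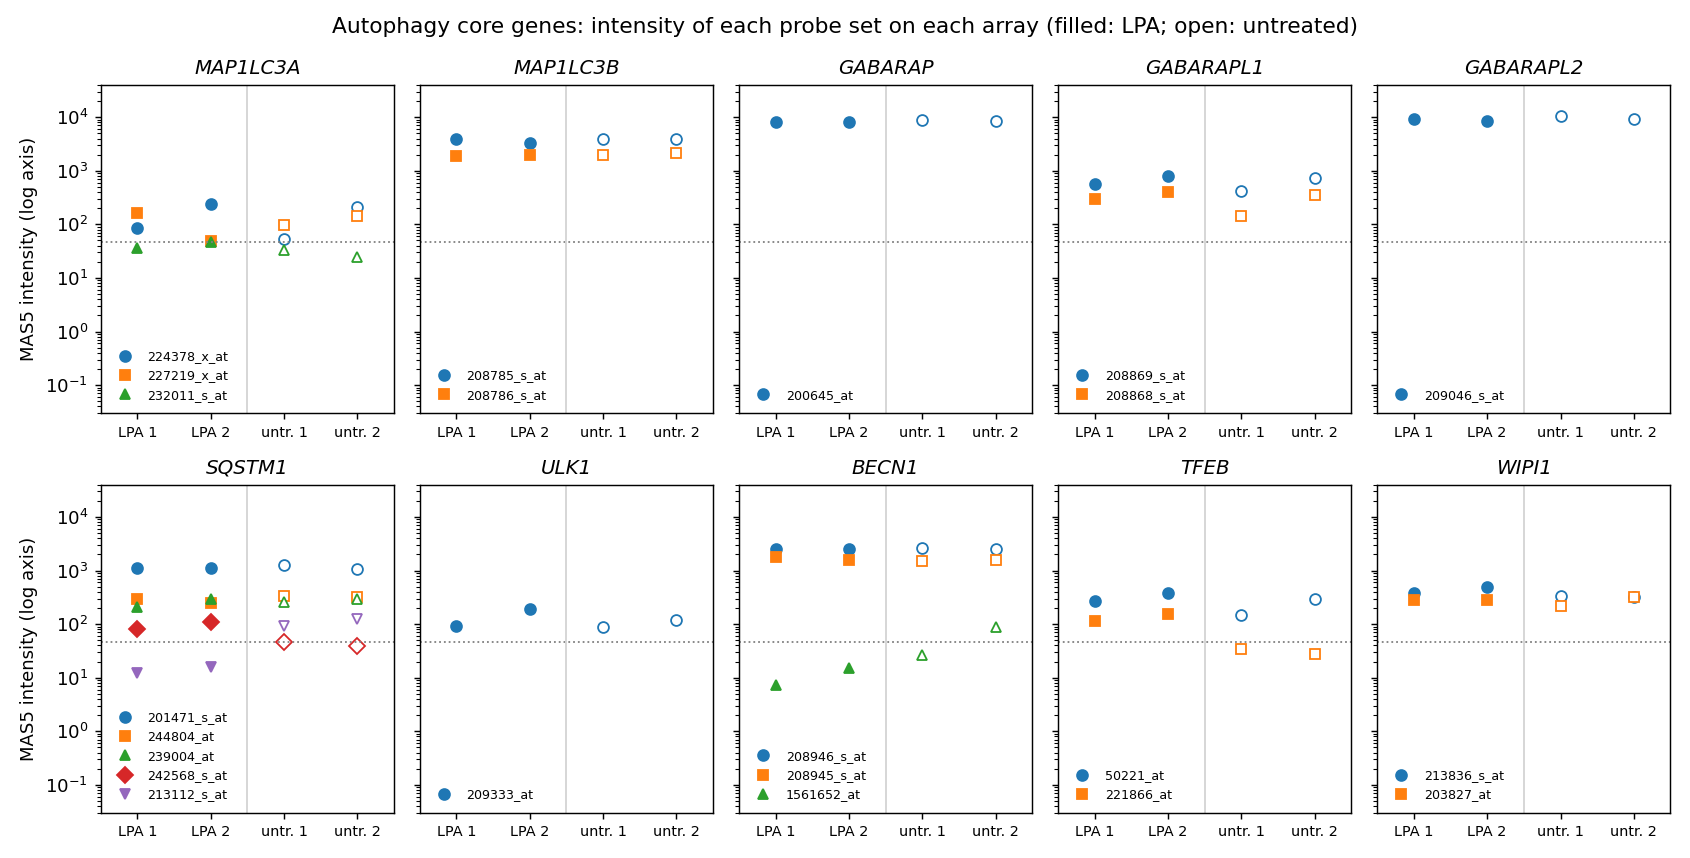
Intensity (log axis) of the 22 member probe sets on each array, 1 panel per gene, with filled symbols for LPA and open symbols for untreated arrays. The dotted line is the 40th percentile of all probe sets, 47.1. GABARAP and GABARAPL2 lay level across the 4 arrays, while dim probe sets of SQSTM1, TFEB and BECN1 were spread widely.

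The LC3 and GABARAP proteins are small ubiquitin-like proteins that are attached to phosphatidylethanolamine on the autophagosome and bind receptors there. GABARAP (200645_at) read 8291 and 8226 in LPA cells and 8677 and 8399.8 in untreated cells. Both LPA values lay just below both untreated values, and the log2 difference was -0.048 ± 0.15 (SE, n = 2 arrays in each group). Its 95% interval ran from -0.40 to 0.30, and the difference was 0.0010 under quantile normalization. GABARAPL2 (209046_s_at), also known as GATE-16, read 9278 and 8517 in LPA cells, against 10325 and 9377 in untreated cells. The groups again did not overlap, with a difference of -0.15 ± 0.16 and an interval from -0.51 to 0.22. The 2 untreated arrays differed by -0.14 (replicate 2 minus replicate 1), nearly as much as the groups. These 2 were the brightest probe sets among the 10 genes whose LPA pair lay wholly below, and all genes gave 15.5%. In RNA from a whole culture, fewer cells with a transcript and less of it per cell cannot be told apart.

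MAP1LC3B encodes LC3B, the form most used to count autophagosomes. Its brightest probe set (208785_s_at) read 3904 and 3369 in LPA cells and 3903 and 3905 in untreated cells, a difference of -0.11 ± 0.16. LPA replicate 2 was low and the other 3 arrays were level, so the replicate numbers gave 0.0003 and -0.21. The other probe set (208786_s_at) read 1885 and 1974 in LPA cells and 1979 and 2104 in untreated cells. There the groups did not overlap, with a difference of -0.081 ± 0.16. The interval from -0.46 to 0.25 at the brightest probe set sets the limit of what could be seen for this gene.

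GABARAPL1, a relative of GABARAP and a target of the starvation-responsive FOXO factors, varied more between the 2 untreated arrays than between the groups. It was among 6 of the 10 members that did so at their brightest probe sets, as did 12834 of all 19775 genes. Its brightest probe set (208869_s_at) read 574 and 793 in LPA cells, against 416 and 718 in untreated cells. The second (208868_s_at) read 303 and 395 in LPA cells, against 144 and 360.0 in untreated cells. On both, untreated replicate 1 was the lowest array and replicate 2 was higher than replicate 1 within each group. The LPA difference was 0.30 ± 0.29 at the first and 0.60 ± 0.42 at the second, while the 2 untreated arrays differed by 0.79 and 1.31. Within replicate number 1 the LPA difference was 0.46 and 1.07, and within number 2 it was 0.14 and 0.13. Without untreated replicate 1 the first became -0.090.

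MAP1LC3A, which encodes the related LC3A, was dim, and its 3 probe sets did not move together. Probe sets with the suffix x can bind unrelated transcripts too, which applies to the 2 brighter ones, and those with the suffix s can bind several transcripts of a gene or its relatives. The first (224378_x_at) read 85.0 and 235 in LPA cells and 52.7 and 215 in untreated cells. Replicate 2 was high in both groups, by 1.46 in LPA and 2.01 in untreated cells, against an LPA difference of 0.40 ± 0.74. The second (227219_x_at) read 163 and 49.7 in LPA cells, against 95.4 and 143 in untreated cells, with replicate numbers at 0.77 and -1.50. The third (232011_s_at), below the 40th percentile, read 36.1 and 46.8 in LPA cells, against 33.1 and 24.1 in untreated cells. Here the groups did not overlap, but the interval of its difference (0.53) ran from -1.38 to 2.43.

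SQSTM1 encodes p62, a receptor that binds ubiquitinated cargo and LC3 and is itself consumed by autophagy. Its brightest probe set (201471_s_at) read 1106 and 1097 in LPA cells, against 1273 and 1059 in untreated cells. Both LPA values lay between the untreated values, for a difference of -0.076 ± 0.18 and an interval from -0.48 to 0.33. The probe set 244804_at read 290.4 and 251 in LPA cells and 331 and 324 in untreated cells, without overlap and with a difference of -0.28 ± 0.27. The probe set 239004_at, whose groups overlapped, gave -0.14 ± 0.30.

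The 2 remaining SQSTM1 probe sets were dim and went opposite ways. The probe set 213112_s_at read 12.3 and 15.8 in LPA cells, against 93.5 and 123 in untreated cells. Its difference was -2.86 ± 0.80, almost equal in replicate numbers 1 (-2.83) and 2 (-2.88), with an unadjusted limma p of 0.00616 and an adjusted p of 0.9998. The LPA values lay under the 40th percentile, and no detection calls were used to tell signal from background there. With a pseudocount of 64 the difference was -1.14. The probe set 242568_s_at read 80.0 and 108 in LPA cells, against 45.9 and 38.6 in untreated cells. Here the untreated values lay under the 40th percentile, with the same limit, and the difference of 1.12 ± 0.65 became 0.57 with a pseudocount of 64. Of the 5 probe sets of SQSTM1, 4 were therefore negative and 1 positive, and the groups did not overlap on 3.

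**Figure D2:**
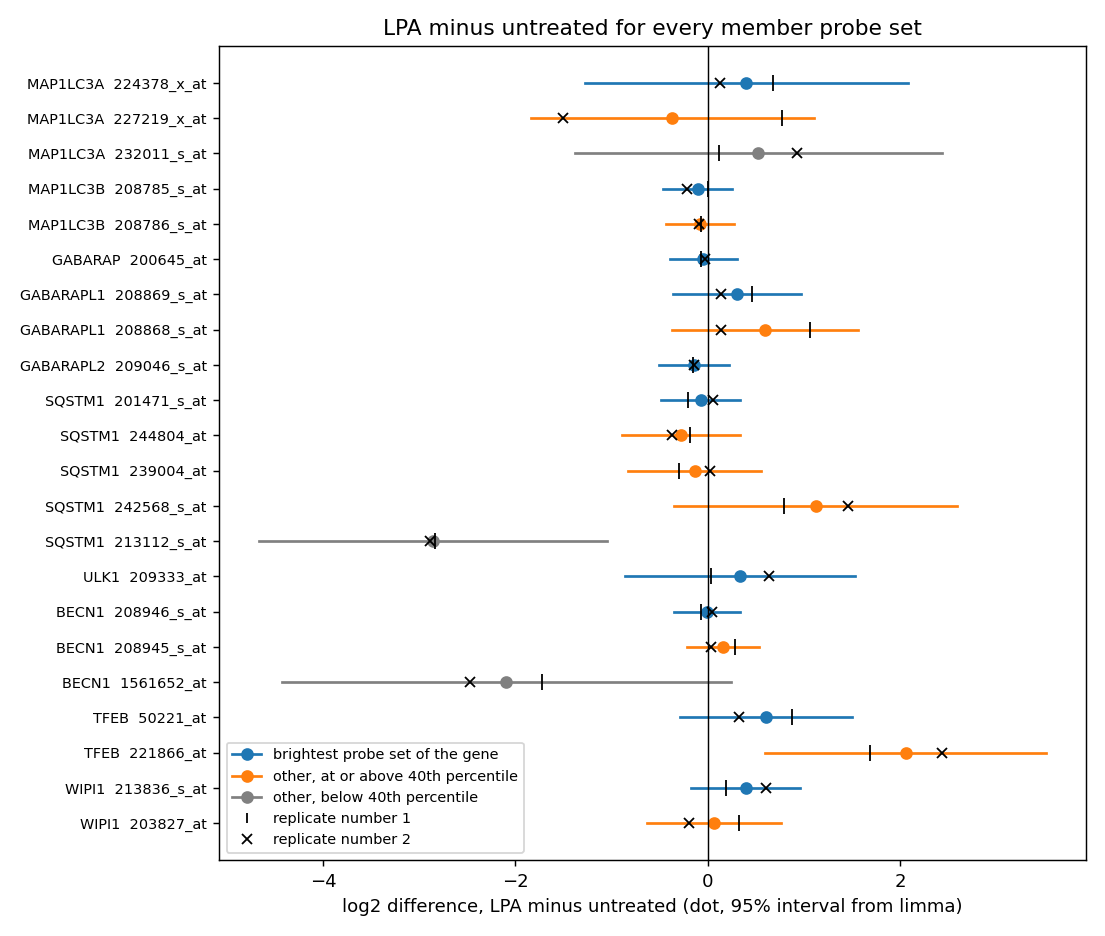
Log2 difference, LPA minus untreated, for the 22 member probe sets (dot) with its 95% interval from limma, and the difference within replicate number 1 (bar) and number 2 (cross). The interval lay wholly on 1 side of 0 for SQSTM1 213112_s_at (-4.67 to -1.05) and TFEB 221866_at (0.60 to 3.52), before any adjustment over probe sets.

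ULK1 encodes the kinase that starts autophagosome formation and is inhibited by mTORC1. Its single probe set (209333_at) read 90.4 and 190 in LPA cells, against 88.5 and 122 in untreated cells. The first arrays of the groups were level and the second arrays were higher, by 1.06 between the LPA arrays and 0.45 between the untreated arrays. The LPA difference was 0.33 ± 0.53, and without LPA replicate 2 it was -0.20.

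BECN1 encodes Beclin 1, the subunit that activates the lipid kinase PIK3C3. Its brightest probe set (208946_s_at) read 2510 and 2576 in LPA cells, against 2631 and 2491 in untreated cells, so that the LPA values lay between the untreated ones. The difference was -0.0099 ± 0.15, with an interval from -0.35 to 0.33. The second probe set (208945_s_at) read 1825 and 1592 in LPA cells and 1499 and 1556 in untreated cells, a difference of 0.16 ± 0.16 without overlap. The third (1561652_at) read 7.23 and 14.9 in LPA cells and 26.2 and 87.3 in untreated cells. It lay below the 40th percentile, and its difference of -2.10 ± 1.03 became -0.64 with a pseudocount of 64. The mean of the 3 probe sets gave -0.65 for BECN1, so the value for the gene depends on whether the dim one is counted.

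TFEB had higher mean values in LPA cells at both probe sets. The brightest (50221_at) read 267 and 373 in LPA cells, against 145 and 297 in untreated cells. The groups overlapped, because LPA replicate 1 lay below untreated replicate 2, and the 2 untreated arrays differed by 1.03 against an LPA difference of 0.60 ± 0.39. The second (221866_at) read 113 and 153 in LPA cells, against 34.5 and 27.5 in untreated cells. Both LPA values were higher in each replicate number (1.68 and 2.43), with a difference of 2.06 ± 0.64, an unadjusted limma p of 0.0112 and an adjusted p of 0.9998. The untreated values lay under the 40th percentile, and no detection calls were used to tell signal from background there. With a pseudocount of 64 the difference was 1.05. Over the alternatives that kept probe sets apart it ran from 1.05 to 2.27, and that of the brightest probe set from 0.089, without untreated replicate 1, to 1.12, without untreated replicate 2.

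WIPI1 encodes a protein that binds phosphatidylinositol 3-phosphate on the forming autophagosome. Its brightest probe set (213836_s_at) read 388 and 495 in LPA cells, against 342 and 325 in untreated cells. It was the 1 brightest probe set among the 10 genes whose LPA pair lay wholly above the untreated pair, and all genes gave 14.2% for this. The difference was 0.39 ± 0.25 with an interval from -0.17 to 0.96. The second probe set (203827_at) read 278 and 285 in LPA cells and 221 and 326 in untreated cells, where untreated replicate 2 was the highest array and the difference was 0.066 ± 0.30.

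With every array kept, the 10 brightest probe sets fell on either side of a gap. MAP1LC3B, GABARAP, GABARAPL2, SQSTM1 and BECN1 differed by -0.15 to -0.0099, with SE from 0.15 to 0.18. MAP1LC3A, GABARAPL1, ULK1, TFEB and WIPI1 differed by 0.30 to 0.60, with SE from 0.25 to 0.74. The highest reading of the 5 positive genes at these probe sets was 793, and the lowest of the 5 negative genes was 1059. Among the other probe sets this ordering did not hold throughout. BECN1 208945_s_at (1499 to 1825) was positive at 0.16, and SQSTM1 244804_at (251 to 331) was negative at -0.28. MAP1LC3B 208786_s_at, bright and negative (-0.081), kept to it. The part of signal strength in the split of the brightest probe sets was not tested. Without untreated replicate 1 the split was gone. MAP1LC3A (-0.603) and GABARAPL1 (-0.090) were then negative, and BECN1 (0.030) and SQSTM1 (0.057) positive. In 6 of the 10 the untreated arrays differed from each other by more than the groups did, and over all genes this held for 12834 of 19775. Of the 7 genes with more than 1 probe set, 3 (MAP1LC3A, SQSTM1 and BECN1) had probe sets that differed in sign.

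**Figure D3:**
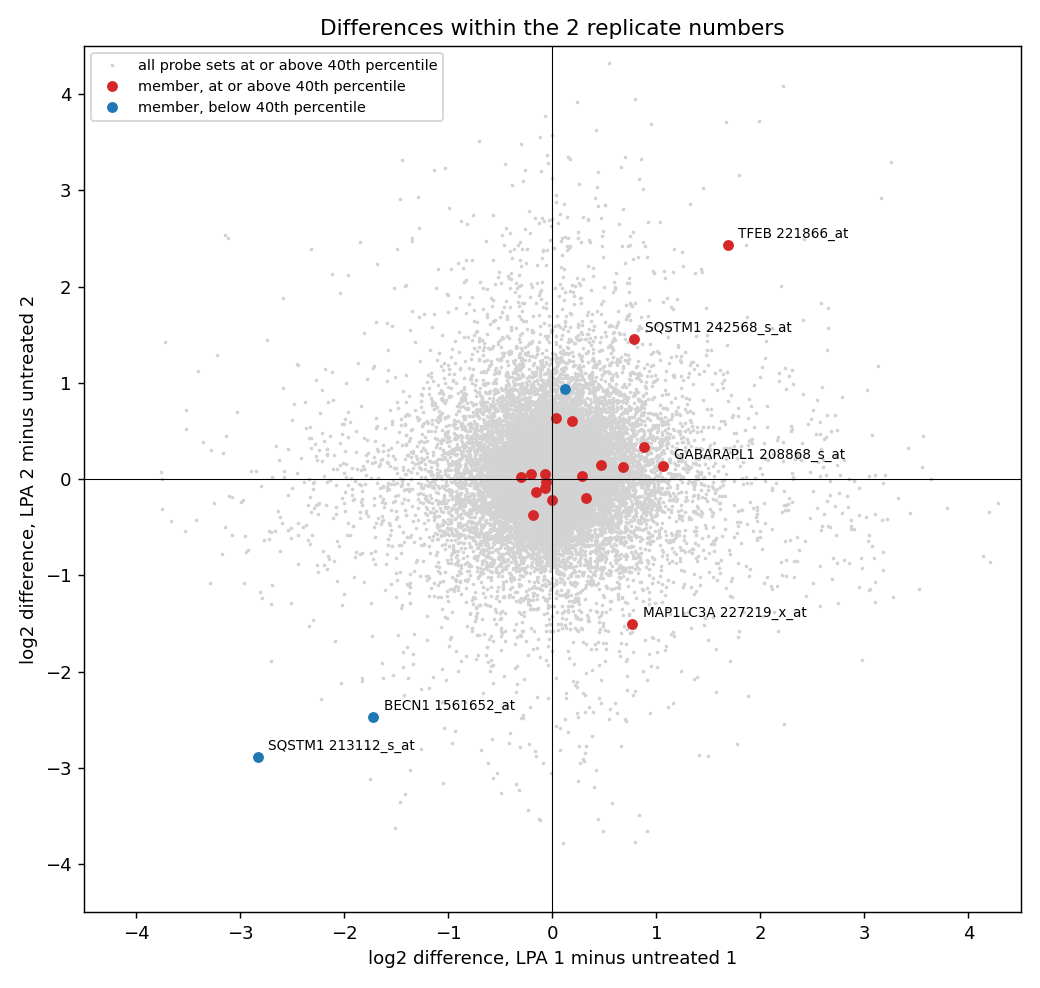
Log2 difference LPA minus untreated in replicate number 2 (vertical) against number 1 (horizontal) for the member probe sets, over all probe sets at or above the 40th percentile (grey). Most members lay near the centre of the grey cloud, with SQSTM1 213112_s_at and BECN1 1561652_at far to the lower left. TFEB 221866_at and another SQSTM1 probe set, 242568_s_at (0.79 and 1.46), lay to the upper right, and MAP1LC3A 227219_x_at at 0.77 and -1.50.

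Of the 22 probe sets, 16 had the same sign in both replicate numbers, and over all probe sets 21242 of 41097 did. The labels do not say that a replicate number marks a shared day or culture, so these differences pair arrays by number only. The pattern nearest to that of the brightest SQSTM1 probe set over the 4 arrays, by Euclidean distance of centred log2 values, was that of PHF20L1 (0.0196), then RALGAPA2 (0.0305) and MKNK2 (0.0315). With 4 arrays such closeness is common: 3218 of 13062 genes lay within 0.3.

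The wider machinery was read from lists of further autophagy genes, each gene at its brightest probe set and only where that lay at or above the 40th percentile. Some lists hold members too. Over all 13063 such genes, 6705 differences were above 0 and the median difference was 0.0073. The LPA pair lay wholly above the untreated pair in 14.4% of these genes and wholly below it in 13.3%. No gene on any list passed the test in either direction (0 of 13063 over all genes, with 239 at an unadjusted limma p under 0.05 and 0 of these on the lists).

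The ULK1 complex, in which ATG13 and RB1CC1 hold the kinase, had 1 of 5 members above 0 and a median of -0.042, and ATG101, a further subunit, differed by -0.094 ± 0.18. In the complex of the lipid kinase, 5 of 8 were above 0, with a median of 0.082. There the LPA pair lay wholly above the untreated pair for 3 genes, among them PIK3R4, the kinase's regulatory subunit (1734 and 1966 in LPA cells, 1486 and 1717 in untreated cells), and NRBF2 (1074 and 1242 in LPA cells, 951 and 1060.5 in untreated cells). The second NRBF2 probe set went the other way without overlap (-0.11), and the other 2 PIK3R4 probe sets, both below the 40th percentile, were negative too (-1.76 and -1.03). Genes for ATG9, WIPI proteins and lipid transfer had 4 of 8 above 0 and a median of 0.024, with WDR45B, a WIPI family member, at 0.21 ± 0.17. Enzymes that process and couple LC3 had 9 of 11 above 0 and a median of 0.14. Their smallest p-values were those of ATG4D, a protease of the family, at 0.24 ± 0.27 and the conjugating enzyme ATG10 at 0.23 ± 0.31, whose other 3 probe sets were negative.

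Selective autophagy receptors had 6 of 12 above 0 and a median of -0.0010. BNIP3L, a receptor for mitochondria, read 3591 and 5316 in LPA cells, against 3152 and 4266 in untreated cells, so that replicate 2 was higher in both groups. WDFY3, which binds SQSTM1, differed by -0.20 ± 0.28, and its probe sets differed in sign. Genes for fusion with the lysosome had 8 of 13 above 0 and a median of 0.054. STX17, the SNARE of the autophagosome, read 444 and 526 in LPA cells, against 406 and 405 in untreated cells, without overlap, and all 5 of its probe sets had positive differences (0.21 to 0.39). VPS18, of the tethering complex HOPS, differed by 0.37 ± 0.37 at its brightest probe set and by -1.03 at its other.

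TFEB, its relatives and lysosomal genes that TFEB-type factors control had 11 of 24 above 0 and a median of -0.0027, with 3 genes above and 4 below without overlap. CTSA, a lysosomal protease, read 1079 and 1233 in LPA cells and 857 and 1009 in untreated cells (0.31 ± 0.18). LAMP2, a lysosomal membrane protein, read 3394 and 3139 in LPA cells and 3081 and 2258 in untreated cells (0.31 ± 0.19), while 1 of its other 3 probe sets was negative. MCOLN1, next on this list by unadjusted limma p, was among those wholly below, at -0.62 ± 0.38, the lowest difference on the list. Regulators of mTORC1 and the energy sensor AMPK had 14 of 20 above 0 and a median of 0.10. RPTOR, the scaffold of mTORC1, read 251 and 320.2 in LPA cells, against 222 and 180 in untreated cells (0.50 ± 0.31). SESN2, a leucine sensor that restrains mTORC1, read 575 and 932 in LPA cells, against 489 and 598 in untreated cells (0.44 ± 0.27). Its second probe set read 505 and 518 in LPA cells, against 399 and 533 in untreated cells (0.15 ± 0.23). The SESN2 groups overlapped on both probe sets. The NRF2 pathway, which SQSTM1 can activate by binding KEAP1, had 7 of 10 above 0 and a median of 0.066. HMOX1, a heme-degrading enzyme among its targets, differed by 0.41 ± 0.31, and GCLM, a subunit of the enzyme that limits glutathione synthesis, by -0.23 ± 0.18, with 1 of its other 2 probe sets positive (0.097).

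**Figure D4:**
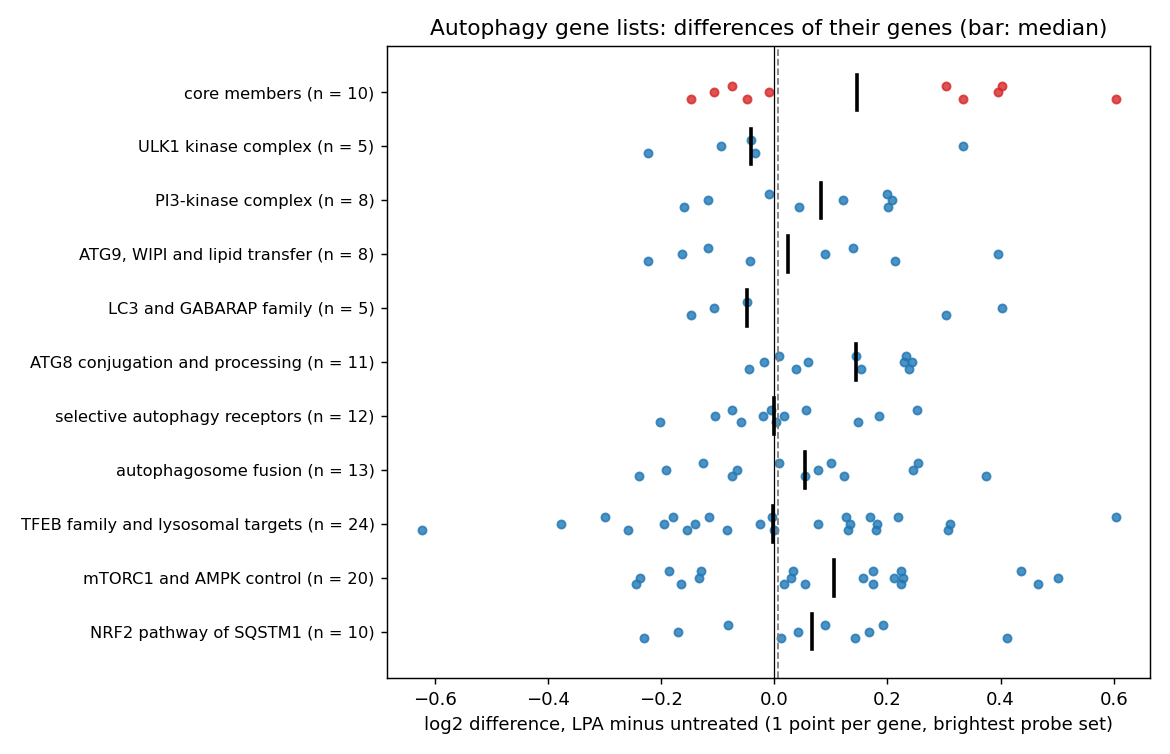
Log2 difference, LPA minus untreated, of each gene at its brightest probe set (points) in the 10 members and 10 lists of autophagy genes, with the median of each list (bar) and of all genes (dashed, 0.0073). List medians lay between -0.048 and 0.15.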

How the data were processed

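RNA from 4 HEK293 samples, 2 LPA and 2 untreated, was hybridised to Affymetrix arrays. The deposited table holds linear intensity values, made by the authors with MAS5 per the submitters' processing notes. Its version and scaling target are not given in the sources used, and no detection calls were used. Equal trimmed means (lowest and highest 2% left out) show that arrays had been scaled before deposit, which does not equalise the shape of their distributions. The labels' protocols name a whole-transcript labelling manual.

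Of 54675 probe sets, 41097 had 1 symbol, 1801 several and 11777 none. Symbols were looked up through Entrez identifiers for 41043, and 0 changed. Values were taken as log2(intensity + 1) and fitted with limma 3.58.1 in R 4.3.3 (lmFit, eBayes with an intensity trend). Benjamini-Hochberg adjustment was over all 41097, with a threshold of 0.05. The added 1 shrinks folds of dim probe sets only slightly, so these folds are not conservative. With 64 added instead, SQSTM1 213112_s_at went from -2.86 to -1.14 and TFEB 221866_at from 2.06 to 1.05. No filter on dim probe sets was applied. Precision is limited by the number of arrays. The median SE was 0.59 over all probe sets and 0.30 over the member probe sets. The script was tested on simulated data.

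The members, lists and tests were chosen with earlier results of these data known. Every member probe set was described, with 2 genes per further list chosen by smallest p. Alternatives were pseudocounts of 16 and 64, 3 normalizations, a filter, gene-level summaries, no trend, a replicate block and leaving out each array.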

Additional observations from a re-analysis of the deposited data

How the results depend on the processing

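In all, 0 member probe sets passed the threshold under each of the 15 alternatives, with 0 to 5 at an unadjusted limma p under 0.05. The count over all probe sets was 0 under 13 of them, 113 of 41097 with limma and a replicate block, and 52 with a replicate block and quantile normalization. The smallest adjusted p of a member probe set under any alternative was 0.369, that of SQSTM1 213112_s_at with the block. The labels give no meaning to the replicate numbers, and with 2 pairs the data cannot settle it: deviations of same-numbered arrays correlated at 0.034 over all probe sets and 0.19 over those at or above the 40th percentile.

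The median over the members, 0.15, was 0.070 with the mean of all probe sets per gene and ran from -0.035 to 0.272 when 1 array was left out. GABARAP turned to 0.0010 under quantile normalization, 0.019 under cyclic loess and 0.0010 with block and quantile normalization. Leaving out 1 array gave -0.049 to 0.030 for BECN1, -0.090 to 0.695 for GABARAPL1, -0.603 to 1.407 for MAP1LC3A, -0.213 to 0.000 for MAP1LC3B, -0.209 to 0.057 for SQSTM1 and -0.196 to 0.864 for ULK1. The mean of all probe sets per gene moved BECN1 from -0.010 to -0.650, SQSTM1 from -0.076 to -0.446 and TFEB from 0.604 to 1.331. The brightest probe sets of GABARAPL2, TFEB and WIPI1 kept their sign under every alternative, but the second WIPI1 probe set ran from -0.215 to 0.346. The cause of these changes was not tested. Detection calls were not used, so dim probe sets cannot be told from background.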
